A study of Mus musculus with 8 samples.

Results

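The proximal part of mouse chromosome 6 holds a row of 7 protein-coding genes that runs from Mdfic through Tes, Cav2, Cav1, Met and Capza2 to St7. They were listed by name, as neighbours of Mdfic, and they are 7 of the 24980 genes in the deposited table. The question asked of them was which ones exceeded the broadly higher level of chromosome 6 in teratoma-derived over satellite cells. They were thus selected on map position with the measured fold changes of TF versus SF and of TE versus SE in view (groups defined below), and Mdfic was chosen by its pattern over all 4 groups. Those values are given below as a description, with no test. Tests are given only for the effects of culture on the other 6 genes.

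RNA-seq was performed on 4 groups of sorted mouse myogenic progenitors with 2 biological replicates each. TF cells were freshly isolated from teratomas, which in the main experiments of the study were formed by EGFP-labeled E14 embryonic stem cells in irradiated and cardiotoxin-injured muscle of NSG-mdx4Cv mice, and TE cells were the same kind of cell expanded in culture to passage 8. SF cells were satellite cells freshly isolated from adult muscle, and SE cells were satellite cells expanded to passage 8. The teratoma-derived cells had been sorted as EGFP+, CD31-, CD45-, α7-integrin+ and VCAM-1+. The stem cell line is not named separately for these libraries. The teratomas grew in a dystrophin-deficient, immunocompromised host, so cell origin, mouse strain and host environment cannot be told apart in any comparison of TF with SF or of TE with SE. The sources used here do not say whether TE and TF, or SE and SF, came from the same animals. The age and strain of the mice that gave the satellite cells are not given there either.

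The 7 genes encode proteins of unrelated kinds. Mdfic encodes an I-mfa domain protein that binds MyoD family factors and other transcription regulators in the cytoplasm and also attaches to PIEZO mechanosensitive channels. Cav1 and Cav2 encode caveolins, membrane proteins that coat caveolae, the small invaginations of the plasma membrane of endothelial cells, adipocytes, fibroblasts and muscle precursors. Met encodes the receptor for hepatocyte growth factor, the ligand that activates quiescent satellite cells and guides migrating limb muscle precursors. Tes encodes testin, a LIM domain scaffold at focal adhesions, and Capza2 encodes an alpha subunit of the capping protein that closes the barbed ends of actin filaments. St7 encodes a membrane protein whose function is poorly known.

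In GRCm38 coordinates of the GENCODE M21 annotation, the genes all lie on the plus strand of chromosome 6. Mdfic spans chr6:15720661-15802169 and is followed after 1263 kb by Tes at chr6:17065149-17105828. Cav2 lies at chr6:17281185-17289115 and Cav1 at chr6:17306335-17341452, with only 17.2 kb between them. Met spans chr6:17463800-17573980, Capza2 chr6:17636234-17666972 and St7 chr6:17692933-17943025. The stretch of 2.22 Mb holds 37 annotated genes, of which 8 are protein coding. The eighth is Tfec, which encodes a transcription factor of the MiT family and had 9 and 0 counts in TF, 6 and 0 in SF and 0 in every TE and SE library. Of the noncoding genes of the stretch that are in the table, Gm36669 had at most 47.4 counts in a library and D830026I12Rik at most 24. Gm4876, which runs antisense to Tes, had 38 and 2 counts in SF, 4 and 0 in SE, 0 and 4 in TF and 0 in both TE libraries. The antisense model Gm15581 overlaps Cav2 and Cav1 and several small models overlap St7, but none of these is in the table. The library kit keeps the strand, while the strand setting of the counting is not given in the sources used here.

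The 250 bases upstream of the annotated start are shown for Mdfic, after which the locus is named, for Tes, which went in opposite directions in cultures of the 2 origins, and for the caveolin pair, which fell together. They are RefSeq sequences of GRCm38.p6, plus strand, at chr6:15720411-15720660 for Mdfic, chr6:17064899-17065148 for Tes, chr6:17280935-17281184 for Cav2 and chr6:17306085-17306334 for Cav1. Capitals mark CANNTG, the E-box that MyoD family factors and many other helix-loop-helix factors can bind.
Mdfic: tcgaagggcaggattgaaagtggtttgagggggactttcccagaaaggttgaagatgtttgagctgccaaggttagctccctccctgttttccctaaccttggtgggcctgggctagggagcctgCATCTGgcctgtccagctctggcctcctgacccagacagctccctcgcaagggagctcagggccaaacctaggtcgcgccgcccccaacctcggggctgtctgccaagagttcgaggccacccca
Tes: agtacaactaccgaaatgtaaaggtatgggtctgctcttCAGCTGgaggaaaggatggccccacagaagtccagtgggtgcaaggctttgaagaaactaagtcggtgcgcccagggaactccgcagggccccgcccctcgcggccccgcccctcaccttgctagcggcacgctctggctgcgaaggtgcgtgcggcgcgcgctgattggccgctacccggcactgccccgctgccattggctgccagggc
Cav2: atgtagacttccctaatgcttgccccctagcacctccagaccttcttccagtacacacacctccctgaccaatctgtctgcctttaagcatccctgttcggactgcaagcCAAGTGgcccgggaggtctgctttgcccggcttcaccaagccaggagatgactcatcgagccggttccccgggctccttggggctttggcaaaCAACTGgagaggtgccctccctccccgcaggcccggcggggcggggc
Cav1: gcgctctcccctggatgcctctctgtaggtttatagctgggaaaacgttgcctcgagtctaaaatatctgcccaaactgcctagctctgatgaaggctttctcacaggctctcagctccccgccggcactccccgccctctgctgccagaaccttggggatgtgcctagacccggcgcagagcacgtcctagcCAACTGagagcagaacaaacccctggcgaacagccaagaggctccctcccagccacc
CANNTG was found once in the windows of Mdfic, Tes and Cav1 and 2 times in that of Cav2, and 66.2% of the 32851 RefSeq promoter windows of this length hold it. The Tes match was CAGCTG, a special case of CANNTG found in 13.0% of windows, and it was absent from the other 3 sequences. GGGCGG on either strand was present in all 4 sequences against 32.7% of windows. TATAAA on either strand was present only in Cav1 among the 4, against 12.4% of windows. The Tes window held 19 CG dinucleotides, the Cav2 and Cav1 windows 10 each and the Mdfic window 7, against a median of 6. These matches describe the letters of the windows, and binding was not measured.

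The libraries summed to between 11930961 and 21146632 estimated counts. All 7 genes passed the filter on low counts that kept 17582 genes for the fit, none was at 0 in any library, and the lowest estimate was 28 counts (Tes in the first SF library). Values below are normalized counts, that is, estimated counts divided by the median-ratio size factor of the library. Fold changes came from edgeR's quasi-likelihood fit over the 4 groups. Standard errors were derived from it, as the size of the log2 fold change divided by the square root of the F statistic against no change. A gene was called changed at a Benjamini-Hochberg adjusted p below 0.05 over all tested genes and a log2 fold change beyond 0.32 in size, the fold threshold that the study used. Of the 10 myogenic markers (Pax7, Itga7 and Vcam1 among them) none was at 0 in both libraries of a group. Their summed level was 23575 to 29722 in TF, 43281 to 44241 in TE, 42545 to 52486 in SF and 58387 to 65446 in SE. In TE versus TF 5 were called higher and 3 lower, and in SE versus SF 3 higher and 4 lower (edgeR). Of all tested genes 9.86%, 16.2%, 20.9% and 19.8% were so called. Pax7 and Vcam1 were called lower in both cultures, while Itga7 was called higher in TE versus TF only. Pax7 averaged 3990 in TF, 1372 in TE, 4313 in SF and 1458 in SE. The fresh libraries also held RNA of genes used as markers of other cell types. The summed level of 12 endothelial markers was 6422 and 2115 in TF and 7401 and 9443 in SF, but 93.0 to 177 in TE and SE, where Kdr, Tie1, Emcn and Cldn5 were at 0 in every library. The 10 fibro-adipogenic markers summed to 71843 to 127909 in the fresh libraries and 785 to 3194 in the expanded ones. Of this, Col15a1 made up 48802 and 58920 in TF, and Gsn made up 48017 and 89353 in SF. Haematopoietic markers reached 5005 in the first TF library and 570 to 806 in the other 3 fresh ones, against 83.2 to 248.6 in the expanded libraries. Adipocyte markers summed to 97.2 and 269 in TF, 1001 and 1761 in SF and 5.24 to 64.4 after expansion. Pericyte and smooth muscle markers summed to 28091 to 36553 in TF, TE and SF and to 9905 and 26946 in SE, but Acta2, smooth muscle actin, made up 22589 and 22390 of it in TE. Of these 10 markers, 8 were called lower and 1 (Acta2) higher in each culture (edgeR), and Rgs5 and Kcnj8 were at 0 in both TE libraries.

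Chromosome 6 as a whole was higher in teratoma-derived cells, and this level is the yardstick for the locus. Over the 628 genes of the chromosome that averaged 50 or more normalized counts, without the locus genes, the median log2 fold change was 0.74 in TF versus SF and 0.53 in TE versus SE. The medians of the other 18 autosomes lay between 0.07 and 0.39 in TF versus SF and between -0.07 and 0.04 in TE versus SE. Relative to the other autosomes the chromosome was thus 1.44-fold higher in TF than SF and 1.45-fold higher in TE than SE. In single libraries the log2 level of chromosome 6 relative to all autosomes was 0.31 and 0.32 in TF, 0.18 and 0.19 in TE, -0.16 and -0.18 in SF and -0.31 and -0.33 in SE. The higher level ran along the whole chromosome: the medians of all 15 windows of 10 Mb were above 0, from 0.33 to 1.30 in TF versus SF and from 0.34 to 0.78 in TE versus SE. In the window that holds the locus the medians over 13 other genes were 1.15 and 0.43. With culture the chromosome 6 medians were -0.07 in TE versus TF and 0.05 in SE versus SF, or 0.13 and 0.18 below those of the other autosomes as a size, and the relative level was lower in each expanded library than in the fresh libraries of the same origin.

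**Figure D1:**
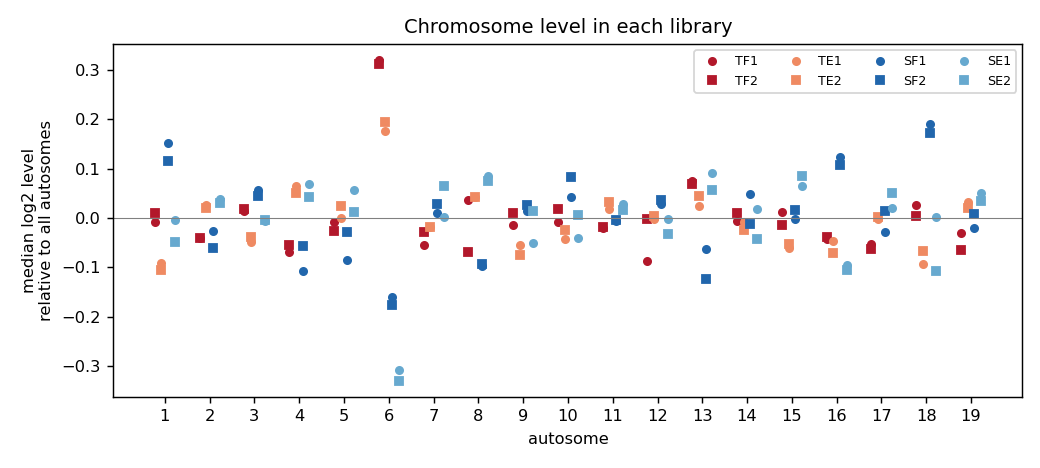
The median log2 level of the genes of each autosome relative to all autosomes (vertical axis) is plotted for each of the 8 libraries (color for the group, marker for the replicate) against the autosome number. Chromosome 6 lies at 0.18 to 0.32 in the 4 teratoma-derived libraries and at -0.33 to -0.16 in the 4 satellite cell libraries.

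**Figure D2:**
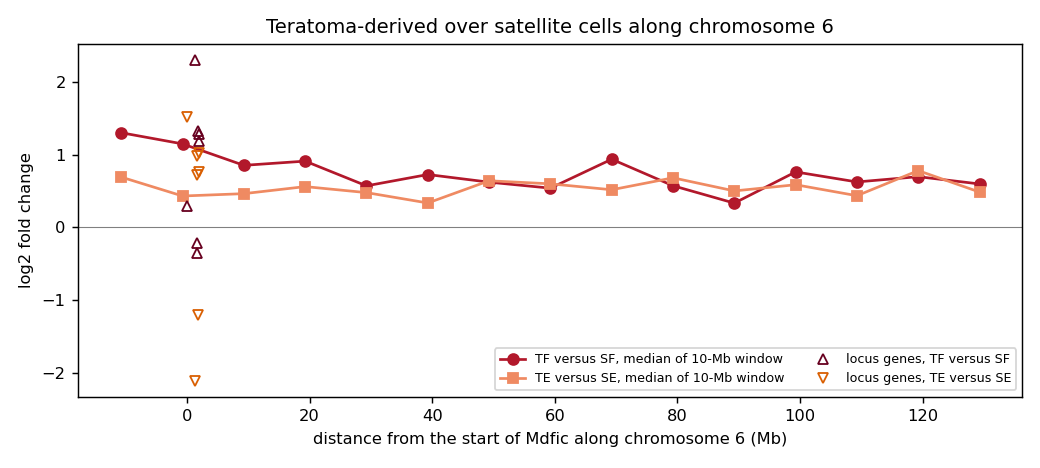
Median log2 fold changes of 10-Mb windows of chromosome 6 (filled points and lines) are plotted against the distance from the start of Mdfic in Mb, for TF versus SF and TE versus SE, with the 7 locus genes as open triangles. All window medians are above 0, while the locus genes spread from -2.10 to 2.30.

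Set against that yardstick, the 7 neighbours did not move as a block. Capza2 and St7 exceeded the chromosome 6 median in both TF versus SF and TE versus SE. Tes and Met exceeded it among fresh cells and lay far below it among expanded cells. Mdfic, Cav2 and Cav1 lay below it among fresh cells and above it among expanded cells. Being above the median in both comparisons held for 2 of the 7 genes and for 26.3% of the 628 chromosome 6 genes, so the share in the locus was near that of the chromosome, and 6.18% of all tested genes met it. The same 2 genes met it under all 15 alternative settings.

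Among fresh cells, Tes stood highest, with a log2 fold change of 2.30 (standard error 0.57) in TF versus SF, which was 1.55 above the chromosome median and higher than 90.6% of the 628 genes. Met followed with 1.32 (0.26), Capza2 with 1.28 (0.19) and St7 with 1.19 (0.36), which were 0.58, 0.54 and 0.45 above the median and higher than 70.2%, 68.5% and 65.1% of the genes. That excess was 2.19 times the standard error of the fold change for Met, 2.83 times for Capza2 and 1.26 times for St7. These ratios are descriptions and not tests, since the standard error belongs to the fold change and not to the excess. Mdfic was at 0.29 (0.21; -0.30 with libraries scaled by chromosome 6 genes), Cav1 at -0.21 (0.30) and Cav2 at -0.36 (0.54), or 0.45, 0.95 and 1.10 below the median as a size. These 3 genes were thus close to equal between TF and SF in absolute terms and low for a gene on this chromosome.

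Among expanded cells the order was different. Mdfic stood highest, with a log2 fold change of 1.51 (0.22) in TE versus SE, 0.98 above the chromosome median and higher than 91.6% of the 628 genes. St7 was at 1.02 (0.35), Cav2 at 0.98 (0.57), Capza2 at 0.76 (0.19) and Cav1 at 0.72 (0.31), between 0.19 and 0.50 above the median. For Cav1, Cav2, Capza2 and St7 that excess was at most 1.40 times the standard error of the fold change, again as a description. It changed sign for Cav1 and Cav2 when single libraries were left out, reaching -0.24 for Cav1 without the first SE library and -0.22 for Cav2 without the second TE library. Met at -1.20 (0.26) and Tes at -2.10 (0.56) lay 1.73 and 2.63 below the median, lower than all but 9.71% and 5.73% of the genes.

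**Figure D3:**
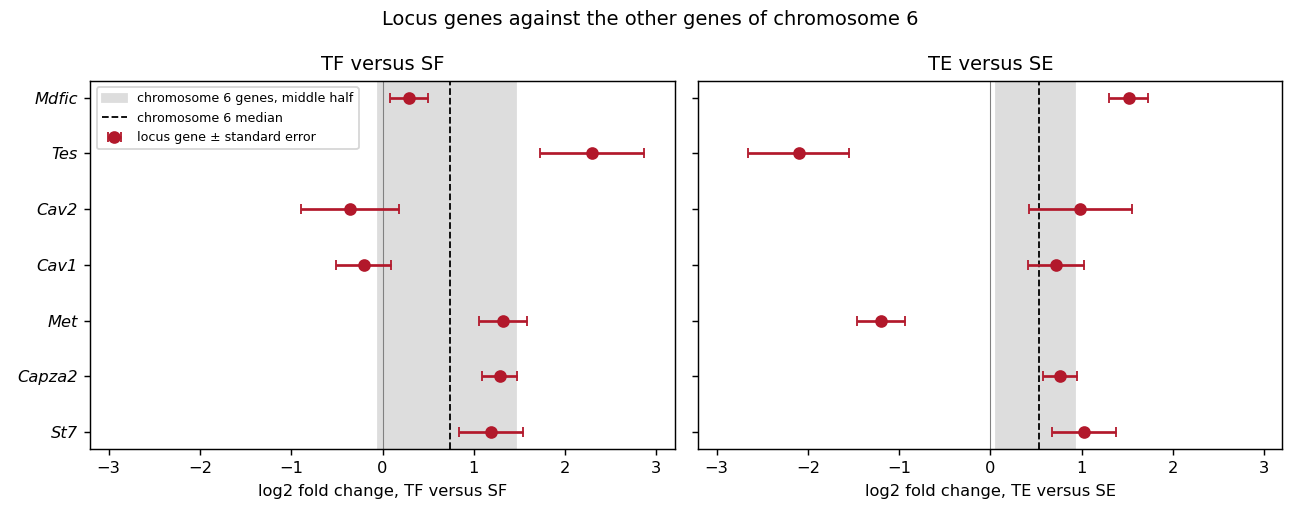
The log2 fold change of each locus gene (points) is plotted for TF versus SF (left) and TE versus SE (right). Bars are standard errors derived from the edgeR F statistic. The median of 628 chromosome 6 genes is a dashed line and their interquartile range is in gray. Only Capza2 and St7 lie to the right of the dashed line in both panels.

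The closer neighbours gave a higher yardstick among fresh cells and a similar one among expanded cells. Within 5 Mb on either side of the locus and in the gaps of it, 24 other genes were tested, and the 18 that averaged 50 or more normalized counts had medians of 0.99 in TF versus SF and 0.54 in TE versus SE. Tes, Met, Capza2 and St7 were above the first of these, and Mdfic, Cav2, Cav1, Capza2 and St7 above the second. In TF versus SF, Met at 1.32, Capza2 at 1.28 and St7 at 1.19 stood closer to this local median than to the chromosome median of 0.74. They were closer still to the 1.15 of the 10-Mb window that holds the locus. Of the 24 neighbours, 7 were called higher and 1 lower in TF than in SF (15.1% and 9.13% of all tested genes), and 3 were called higher and 1 lower in TE than in SE (3.15% and 4.07%). All 24 lie on chromosome 6. Of its 628 genes, 73.6% had a log2 fold change above 0 in TF versus SF and 76.4% in TE versus SE. These counts thus cannot tell the neighbours from the rest of the chromosome.

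Mdfic was abundant in 3 of the groups and low in SE. Its normalized counts were 2437 and 3163 in TF, 2405 and 2692 in SF, 1691 and 1643 in TE, and 679 and 508 in SE. TF and SF overlapped, TE lay below both, and SE lay below TE without overlap. The group means were 2800 ± 514 in TF, 2549 ± 203 in SF, 1667 ± 34.0 in TE and 593 ± 121 in SE (SD, n = 2). Mdfic was 1.62-fold lower in TE than in TF and 3.77-fold lower in SE than in SF, so the log2 difference between the effects of culture was 1.22 (standard error 0.30). Per kilobase of transcript, the Mdfic level was at the 94th percentile of tested genes in TF and SF and at the 72nd in SE.

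No other gene of the locus had the same pattern over the 8 libraries. With log2 levels centered on each gene's own mean, the root mean square difference from Mdfic over the 8 libraries was 0.53 for St7, which made it number 202 of the 12678 genes ranked, and between 0.91 and 1.74 for the other 5. The closest genes were Nab1 on chromosome 1 (0.13), Ehbp1 on chromosome 11 (0.20), Atp10d on chromosome 5 (0.21), Lifr on chromosome 15 (0.21) and Lhfp on chromosome 3 (0.26). Nab1 averaged 1674 normalized counts in TF, 1760 in SF, 960 in TE and 398 in SE. Lifr, the receptor for leukemia inhibitory factor, averaged 2405 in TF, 1926 in SF, 1815 in TE and 517 in SE. Of the 20 genes most like Mdfic, 5 were on chromosome 6 and of all ranked genes 5.00% were.

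The partners of Mdfic proteins were described by a list of 20 genes. It held the paralog Mdfi, myogenic factors, the helix-loop-helix factors Tcf3, Tcf4 and Tcf12, and ZIC factors. The TCF/LEF factors Lef1, Tcf7l1 and Tcf7l2, Axin, P-TEFb subunits and PIEZO channels made up the rest. In TF versus SF 5 were called higher and 4 lower (15.1% and 9.13% of all tested genes), with a median log2 fold change of 0.45 against 0.08 over all tested genes. In TE versus SE 2 were called higher and 2 lower by edgeR (3.15% and 4.07% of all tested genes) and 2 and 5 by DESeq2, with a median of 0.10 against -0.003. Myod1, which encodes the myogenic factor that I-mfa proteins hold back, was lower in TF than SF by a log2 of 3.16 as a size (adjusted p = 0.000111, edgeR) and lower in TE than SE (log2 fold change -1.11, adjusted p = 0.0190, edgeR). Myog, a factor of differentiating muscle cells, was at 11.9 ± 4.18 normalized counts in SF and 1389 ± 85.7 in TF (SD, n = 2), a log2 fold change of 6.997 (adjusted p = 0.000179, edgeR). Zic1 was higher in TE than SE by 2.66 (adjusted p = 0.0390, edgeR), and Piezo2, a mechanosensitive channel, was lower there by 1.91 on the log2 scale (adjusted p = 0.00949, edgeR). The paralog Mdfi stayed far below Mdfic, with 89.6 and 119 normalized counts in TF, 173 and 90.2 in TE, 38.2 and 28.5 in SF and 69.4 and 144 in SE.

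**Figure D4:**
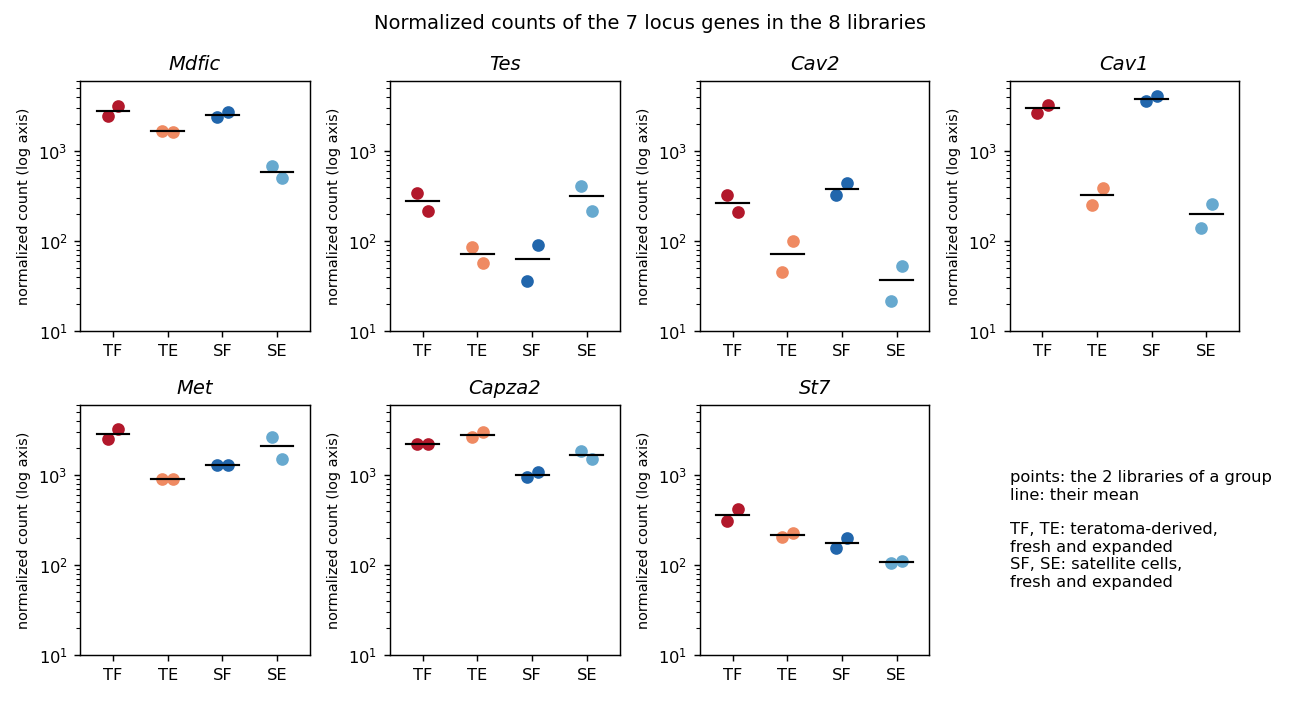
Normalized counts of the 7 locus genes (vertical log axes, 1 panel a gene) are plotted for the 2 libraries of each group (points) with the group mean (line). Cav1 and Cav2 are low in both expanded groups, Mdfic is low in SE, and Tes and Met are high in TF and SE.

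Counted over the locus, 4 of the 6 tested genes (Tes, Cav2, Cav1 and Met) were called lower in TE than TF, where 16.2% of all tested genes and 25.8% of the 628 chromosome 6 genes were, and none was called higher (0 at an unadjusted p below 0.05 and 0 by DESeq2). In SE versus SF 3 of the 6 were called higher (Tes, Met and Capza2) and 2 lower (Cav1 and Cav2), against 20.9% and 19.8% of all tested genes and 28.2% of the chromosome 6 genes in either direction. DESeq2 gave the same counts in both comparisons. With only 6 genes the shares are given as counts.

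Both caveolin genes fell in culture, in cells of either origin. Cav1 stood at 2667 and 3279 normalized counts in TF and at 3613 and 4046 in SF, against 254 and 392 in TE and 141 and 257 in SE. Each fresh library exceeded every expanded library, SF exceeded TF, and TE and SE overlapped. In culture Cav1 fell 8.87-fold in teratoma-derived cells (log2 fold change -3.15, standard error 0.33, adjusted p = 0.000123) and 16.9-fold in satellite cells (-4.08, 0.34, adjusted p = 2.3e-05, edgeR). Per kilobase of transcript, Cav1 had the highest level of the locus in TF (1083 normalized counts per kb) and in SF (1395), and it was behind Capza2, Mdfic and Met in TE and behind those and Tes in SE.

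Cav2, at a lower level, had 322 and 213 normalized counts in TF, 324 and 439 in SF, 44.9 and 100.2 in TE and 21.5 and 53.2 in SE. Again the fresh libraries were all above the expanded ones, and TE and SE overlapped. Cav2 fell 3.54-fold in TE versus TF (log2 fold change -1.82, standard error 0.56, adjusted p = 0.0386) and 8.97-fold in SE versus SF (-3.17, 0.59, adjusted p = 0.00235, edgeR). In TE versus TF the adjusted p was 0.152 without the first TF library and 0.228 without the first TE library. The ratio of Cav1 to Cav2 normalized counts was 8.28 and 15.4 in TF, 11.2 and 9.22 in SF, 5.65 and 3.91 in TE, and 6.57 and 4.84 in SE. It was thus higher in all 4 fresh libraries than in the 4 expanded ones.

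Falls in both cultures were called for these 2 genes, for 9.81% of all tested genes and for 16.6% of the 628 chromosome 6 genes. Caveolins are abundant in endothelial, fat and stromal cells. In culture 11 of 12 endothelial markers and 10 of 10 fibro-adipogenic markers were called lower in TE than TF, and 11 and 9 were called lower in SE than SF. Of the 4 adipocyte markers tested, 1 was called lower in each culture, and of the 10 pericyte and smooth muscle markers 8 were. Among all tested genes 16.2% were called lower in TE versus TF and 19.8% in SE versus SF, so the adipocyte count was near these shares. In these bulk samples, fewer cells of a type and less RNA per cell cannot be told apart. The endothelial sum was 3 times as high in the first TF library as in the second, and in this order Cav1 had 2667 and 3279 normalized counts and Cav2 322 and 213. The part of endothelial and other cells in the caveolin levels was not tested.

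The fall was not shared by all caveolar genes. Of 13 other genes of caveolae, 6 were called higher and 3 lower in TE versus TF, and 5 higher and 2 lower in SE versus SF, where 9.86% and 16.2% and then 20.9% and 19.8% of all tested genes were called. Their medians were 0.72 and -0.12 against -0.18 and -0.23 over all tested genes. Cav3, the muscle caveolin, which also lies on chromosome 6, rose from 102 to 479 normalized counts in teratoma-derived cells (log2 fold change 2.29, adjusted p = 0.0396) and from 19.6 to 490 in satellite cells (4.87, adjusted p = 0.00131, edgeR). Cavin4, the muscle cavin, rose by 3.09 and 7.17 (adjusted p = 5.33e-05 and 1.86e-06, edgeR). Ror1, a receptor that scaffolds caveolae, fell in both cultures (log2 fold changes -3.48 and -5.98, adjusted p = 7.39e-05 and 5.46e-06, edgeR). Between origins, 3 of the 13 were called higher and none lower by edgeR in TF versus SF (2 lower at an unadjusted p below 0.05 and 2 by DESeq2), and 3 higher and 1 lower in TE versus SE, against 15.1%, 9.13%, 3.15% and 4.07% of all tested genes. Cavin3 was higher in teratoma-derived cells in both comparisons, with log2 fold changes of 1.55 (adjusted p = 0.00337) and 1.03 (adjusted p = 0.0479, edgeR).

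Met fell in culture in teratoma-derived cells and rose in satellite cells. Its normalized counts were 2504 and 3213 in TF and 887 and 891 in TE, but 1275 and 1283 in SF and 2656 and 1497 in SE. TE lay below the other groups, SF lay between TE and SE, and TF and SE overlapped. The fall from TF to TE was 3.09-fold (log2 fold change -1.63, standard error 0.27, adjusted p = 0.00179), and the rise from SF to SE was 1.85-fold (0.89, 0.26, adjusted p = 0.0223, edgeR). The rise was not called in 4 alternatives: without the first SE library it was 0.45 (adjusted p = 0.178), without the first SF library 0.86 (0.0878), with median-ratio size factors 0.70 (0.0587) and with SF and SE alone in the fit 0.90 (0.0559). The difference between the effects of culture was -2.52 (0.37), and it lay between -2.88 and -2.05 under the 13 alternatives.

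Hgf, the ligand of Met, was low and its libraries were uneven. It had 60 and 67 counts in TF, 158 and 129 in SF and 393 and 133 in SE, and it was at 0 in both TE libraries. With TE set at the floor of 3 counts per library, its normalized level in TE was at least 50.1-fold lower than in the lower SE library and at least 34.2-fold lower than in the lower TF library. Of 29 genes of HGF-Met signaling, 8 were called lower and none higher in TE versus TF (16.2% and 9.86% of all tested genes), with 2 higher at an unadjusted p below 0.05 and 0 higher by DESeq2. In SE versus SF 9 were called lower and 1 higher (19.8% and 20.9% of all tested genes). Stat3, a transducer downstream of Met, fell in both cultures, from 4782 to 1978 normalized counts in teratoma-derived cells (log2 fold change -1.22, adjusted p = 0.00554) and from 15922 to 1235 in satellite cells (-3.50, adjusted p = 1.35e-05, edgeR). Plau, the urokinase that can activate pro-HGF, was lower in teratoma-derived cells, with log2 fold changes of -2.49 in TF versus SF (adjusted p = 0.000767) and -2.13 in TE versus SE (adjusted p = 0.00376, edgeR). Itgb4, an integrin subunit that can associate with Met, was likewise lower in both, at -2.67 (adjusted p = 0.00605) and -2.21 (adjusted p = 0.0296, edgeR). Its satellite cell libraries were uneven, with 2220 ± 837 normalized counts in SF and 2517 ± 2073 in SE (SD, n = 2). In total 2 of the 29 were called higher and 4 lower in TF versus SF, and 2 higher and 3 lower in TE versus SE (15.1%, 9.13%, 3.15% and 4.07% of all tested genes).

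Tes, the least abundant of the locus in SF, changed in the same opposite directions as Met. It had 344 and 215 normalized counts in TF, 86.9 and 57.8 in TE, 35.7 and 90.1 in SF, and 414 and 219 in SE. TF overlapped SE and TE overlapped SF, and these pairs did not overlap each other. Tes fell 3.71-fold from TF to TE (log2 fold change -1.89, standard error 0.56, adjusted p = 0.0320) and rose 5.68-fold from SF to SE (2.51, 0.57, adjusted p = 0.00661, edgeR). The fall had an adjusted p of 0.140 without the first TF library, 0.0702 without the first TE library and 0.173 without the second TE library. The difference between the effects of culture was -4.40 (0.80), between -5.27 and -3.84 under the 13 alternatives. Reads of the antisense Gm4876, with 38 counts in the first SF library, where Tes had 28, may or may not have been kept apart from those of Tes, since the strand setting is not given.

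A fall in TE versus TF with a rise in SE versus SF was called for Tes and Met, 2 of the 6 genes tested, against 0.865% of all tested genes and 1.91% of the 628 chromosome 6 genes. Their differences between the effects of culture are by arithmetic also the differences between TE versus SE and TF versus SF, which were known when the genes were listed, so no test is given for them. Chromosome 6 had a median difference of -0.23, and 4.14% and 9.08% of its genes lay below Tes and Met.

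**Figure D5:**
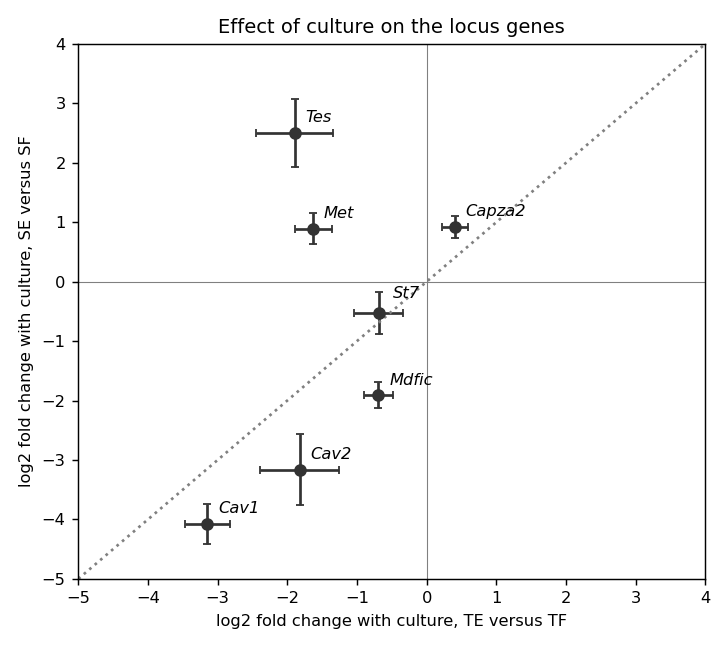
The log2 fold change with culture in satellite cells (SE versus SF, vertical axis) is plotted against that in teratoma-derived cells (TE versus TF, horizontal axis) for the 7 genes. Bars are standard errors derived from the edgeR F statistic, and the line of equal change is dotted. Cav1, Cav2, Mdfic and St7 lie at negative values on both axes, Capza2 at positive values, and Tes and Met at negative values on the horizontal and positive values on the vertical axis.

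Of the adhesion partners of testin, 17 genes of which 16 were tested, 6 were called higher and 2 lower in TE versus TF (9.86% and 16.2% of all tested genes). In SE versus SF 8 were called higher and 3 lower by edgeR (20.9% and 19.8% of all tested genes), but 5 and 5 by DESeq2. Vasp, a regulator of actin filament growth, rose in both cultures (log2 fold changes 1.75 and 2.69, adjusted p = 0.000386 and 2.54e-05, edgeR), as did Actn1, a crosslinker of actin filaments (0.59 and 1.63, adjusted p = 0.0440 and 0.000149, edgeR). Between origins, 3 were called higher and 2 lower in TF versus SF (15.1% and 9.13% of all tested genes), with Fhl2 at 1.89 (adjusted p = 0.00540) and Limd1 at -1.40 (adjusted p = 0.00318, edgeR). In TE versus SE only Zyx was called by edgeR (2 genes were lower at an unadjusted p below 0.05 and 1 by DESeq2), at 1.12 (adjusted p = 0.0134, edgeR), a gene of chromosome 6 named here after its value was seen.

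Capza2 was higher in each teratoma-derived library than in any satellite cell library. It had 2202 and 2171 normalized counts in TF and 2604 and 2961 in TE, against 934 and 1071 in SF and 1838 and 1491 in SE. None of the 4 groups overlapped, in the order TE, TF, SE and SF. In culture Capza2 rose 1.89-fold in satellite cells (log2 fold change 0.92, standard error 0.19, adjusted p = 0.00393), while the change in teratoma-derived cells was 0.40 (0.19, adjusted p = 0.142, edgeR). The latter had an adjusted p of 0.0314 with TF and TE alone in the fit. Per kilobase of transcript, Capza2 was the highest gene of the locus in TE (1097 normalized counts per kb) and SE (656).

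Of 18 genes tied to actin capping, 17 were tested, and 8 of them were called higher and none lower by edgeR in TF versus SF, where 15.1% and 9.13% of all tested genes were called (0 lower at an unadjusted p below 0.05 and 0 by DESeq2), with a median of 0.78 against 0.08 over all tested genes. In TE versus SE 2 were called higher and 1 lower (3.15% and 4.07% of all tested genes), with a median of -0.15. The 2 called higher, Washc2 and Dctn1, are on chromosome 6, whose own median there was 0.53. Dctn1, named here after its values were seen, was at 0.74 in TE versus SE (adjusted p = 0.0402, edgeR). In TF versus SF it was at 1.03 (adjusted p = 0.00411, edgeR), against a chromosome 6 median of 0.74. Capg, also on chromosome 6, was called in neither comparison. Mtpn and Washc2, which are on chromosome 6 as well, were higher in TF than SF by 1.75 and 1.52 (adjusted p = 0.000356 and 0.00160), and in TE versus SE they stood at 0.52 (adjusted p = 0.135) and 0.96 (adjusted p = 0.0309, edgeR). Rcsd1, which encodes a capping protein interactor, was higher in TF than SF by 2.85 (adjusted p = 0.0129, edgeR). Twf2, a twinfilin, was higher in TF than SF by 2.11 (adjusted p = 0.00474) and rose in satellite cells in culture by 2.17 (adjusted p = 0.00188, edgeR). Capzb, the beta subunit that pairs with Capza2, is named here after its values were seen. It was at 0.43 in TF versus SF (adjusted p = 0.125) and at -0.15 in TE versus SE (adjusted p = 0.735, edgeR). Capza1, an alpha subunit gene of chromosome 3, is likewise named after its values were seen. It was higher in TF than SF by 0.9997 (adjusted p = 0.00375) and not called in TE versus SE (0.22, adjusted p = 0.557, edgeR). In SE versus SF, Capza1 and Capzb were called higher, at 0.96 (adjusted p = 0.00214) and 0.85 (adjusted p = 0.00521, edgeR).

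St7 was the other gene with every teratoma-derived library above every satellite cell library. Its normalized counts were 305 and 412 in TF, 201 and 227 in TE, 153 and 197 in SF and 105 and 109 in SE. The 4 groups did not overlap, in the order TF, TE, SF and SE, but the gap between the lower TE library (201) and the higher SF library (197) was small. Such a separation of all 4 teratoma-derived from all 4 satellite cell libraries held for 2 of the 7 genes, for 3.18% of all tested genes and for 20.4% of the 628 chromosome 6 genes. With culture, the log2 fold change of St7 was -0.69 (standard error 0.35, adjusted p = 0.175) in TE versus TF and -0.52 (0.35, adjusted p = 0.254, edgeR) in SE versus SF. Its 2 effects of culture differed by -0.17 (0.50), a value whose sign changed without the second TF library or the first SF library.

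The paralog St7l, on chromosome 3, was at -0.48 in TF versus SF (adjusted p = 0.462) and at -0.17 in TE versus SE (adjusted p = 0.923, edgeR), so it was not called in either. Some receptors of the LRP family were set beside St7. Lrp5, a Wnt co-receptor, was higher in TF than SF by 1.27 (adjusted p = 0.000933, edgeR). Vldlr was higher in TE than SE by 1.81 (adjusted p = 0.0270), while Lrp8 was lower by 2.69 on the log2 scale (adjusted p = 0.0192, edgeR). Lrp6, a Wnt co-receptor of chromosome 6 named after its values were seen, was at 0.78 in TE versus SE (adjusted p = 0.0432, edgeR).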

How the data were processed

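RNA was measured in 8 libraries, 2 biological replicates in each of the groups TF, TE, SF and SE, which were taken from the sample labels. The authors deposited 1 table of estimated counts for 24980 gene symbols, not normalized, in which 74.4% to 84.4% of the values of a library were whole. The submitters' processing notes name kallisto 0.44.0, CASAVA and the builds GRCm38 and mm10, with no role or order. The annotation and strand setting of the counting are not given in the sources used here. Libraries were made with a stranded total RNA kit for low input.

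Estimated counts were rounded, filtered with filterByExpr (17582 genes kept), scaled by TMM and tested with edgeR 4.0.16 in R 4.3.3 by its quasi-likelihood test, with all 4 groups in the same model (common dispersion 0.233). Genes were called at a Benjamini-Hochberg adjusted p below 0.05 and a fold change above 1.25, as the study did. Every adjusted p for a gene in the text is from this fit. Normalized counts used median-ratio size factors (DESeq2 1.42.0), which differ from TMM, so a fold of printed means can depart from the fitted one. Levels per kilobase used the longest coding GENCODE M21 transcript, or the longest one of noncoding genes, and 24913 symbols were placed on chromosomes, 372 of them through RefSeq synonyms. Promoter windows were from RefSeq, GRCm38.p6. The scripts were tested on simulated data.

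The 7 locus genes and all gene lists were chosen with earlier results of these data known. The comparisons of TF with SF and of TE with SE chose the locus, and Mdfic was known for its pattern over all groups, so those values, and the difference between the effects of culture, which is the difference between the same 2 comparisons, have no test for the locus genes. Genes of each pathway list were named if called in TF versus SF or TE versus SE, up to 4 a list by largest change and an average of 50 or more normalized counts. The counts of the list set beside St7 are not reported here. Genes like Mdfic were the 5 with the smallest root mean square difference. Marker lists held genes used as markers of 6 cell types, and whether other cells of these samples expressed them too was not tested. Alternatives were median-ratio scaling, no filter on low counts, DESeq2, a replicate block, the 2 groups compared alone, each library left out, scaling by chromosome 6 genes, other minimum levels and the region of chromosome 6. With 2 libraries a group, p-values measure only the spread between these samples, which may be technical in part. Replicates of a group differed beyond counting noise (chi-square per degree of freedom 12.1 to 93.0).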

Additional observations from a re-analysis of the deposited data

Results flagged for a closer look

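Effects of culture that went in opposite directions in teratoma-derived and satellite cells were seen for 2 genes. For Tes both TE libraries were below both TF libraries and both SE libraries were above both SF libraries, and the difference between the log2 effects was -4.40. For Met the same held, with a difference of -2.52. The difference between origins was not tested for these 2 genes, because it equals the difference between the comparisons by which the locus was listed. The falls and rises themselves were tested and are given above.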

How the results depend on the processing

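With 2 libraries a group and 28 counts at the lowest, folds of Tes and Cav2 carry standard errors of 0.54 to 0.59, so differences near the chromosome 6 median were not detectable for them. Of the 168 repeats of the 12 tested values of the locus genes under 14 settings, 158 kept their direction and side of the threshold, 9 lost the call and 1 gained it, as given above, and none turned direction. Of the values with no test, the sign changed for Mdfic in TF versus SF, which was -0.30 when libraries were scaled by chromosome 6 genes, and for the difference between cultures of St7, which was 0.08 without the second TF library and 0.05 without the first SF library. Replicate numbers showed no shared effect between groups (correlations of replicate differences between groups were -0.03 to 0.08). These correlations cannot tell whether expanded and fresh samples came from the same animals. With the replicate block the counts of called genes were 4321 in TE versus TF, 6757 in SE versus SF, 2327 for the difference between cultures, 3979 in TF versus SF and 1205 in TE versus SE, with no call of a tested locus gene changed. The block gave chromosome 6 medians of 0.76 in TF versus SF and 0.0731 in SE versus SF. Genes called in TE versus SE were 1268, but 2260 with no filter and 2122 with DESeq2. With single libraries left out the called genes ranged from 2739 to 5439 in TE versus TF (main 4581), 1467 to 2996 for the difference (main 2517), 2639 to 5072 in TF versus SF (main 4261) and 653 to 1698 in TE versus SE.

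The chromosome 6 medians ranged, with single libraries left out, from -0.0765 to -0.0172 in TE versus TF, -0.0262 to 0.098 in SE versus SF, 0.70 to 0.82 in TF versus SF and 0.52 to 0.59 in TE versus SE. In the order TE versus TF, SE versus SF, TF versus SF and TE versus SE, they were -0.12, -0.14, 0.58 and 0.51 when libraries were scaled by median ratios, -0.12, -0.14, 0.59 and 0.51 by DESeq2, and -0.36, -0.46, 0.58 and 0.43 over genes with a mean of at least 10. Outside the first 30 Mb they were -0.0423 in TE versus TF and 0.71 in TF versus SF, and with the 2 groups alone 0.0762 in SE versus SF and 0.65 in TF versus SF. The median over all tested genes was 0.08 in TF versus SF and -0.23 in SE versus SF, and -0.08 and -0.43 with median-ratio size factors, so absolute folds in these comparisons shift by that much and the values against chromosome 6 do not.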
